A study of Mus musculus with 6 samples.

Results

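Pan-endothelial identity genes are expressed in nearly all vascular beds, and 10 of them were read here in liver sinusoidal endothelial cells (LSECs): Pecam1, Cdh5, Cldn5, Esam, Mcam, Emcn, Erg, Egfl7, Robo4 and Eng. Members were the rows of the gene table whose symbol equals one of these names, and all 10 were found among 60832 listed genes. The RNA-seq libraries came from LSECs of male BALB/c nude mice whose livers bore metastases grown from the human colorectal cancer line HCT116, called CRCLM xenografts by the study. The cells had been collected with anti-CD146 beads, which bind the protein encoded by Mcam, and kept in culture for 24 h. The sensitive group (n = 3) came from bevacizumab-sensitive xenografts and the resistant group (n = 3) from xenografts made resistant by repeated bevacizumab, an antibody against human VEGF-A. By the study's methods, vehicle mice received IgG, and resistance had been acquired in the mouse rather than in a cell clone. The labels do not say whether the replicates came from separate mice, so the p-values below measure the spread between these libraries, which may in part be technical.

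Endothelial identity is held by several layers of genes. Adhesion molecules at the cell borders keep the vessel wall sealed, transcription factors of the ETS family drive the endothelial programme, and receptors and secreted proteins tune sprouting and vessel shape. Sinusoidal endothelium is discontinuous and fenestrated, lies next to Kupffer cells (the resident macrophages of the liver) and hepatic stellate cells, and carries several of the pan-endothelial proteins at lower density than large vessels do. Some of these genes are not limited to endothelium: Pecam1 is also used by platelets and leukocytes, Eng by activated macrophages and stromal cells, and Cdh5 transcripts are known from Kupffer cells.

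The libraries held between 17599326 and 20726684 counts on genes. A count of 3 stood for 0.145 to 0.170 CPM (the count scaled by the library total), and this floor reflects counting error alone. Replicate 2 of the sensitive group stood apart, with Pearson's r of 0.860 to 0.901 against the other libraries on the log2 CPM scale, while r among the other 5 was 0.954 to 0.974. It was the lowest of the 6 libraries for 47.7% of the 15474 genes that passed the filter on low counts. The next library in that order had the lowest value for 17.4%. Replicate 2 of the sensitive group was also the highest library for 26.0% of these genes, again the largest share, with 17.7% in the next. Markers of macrophages and Kupffer cells were far above the endothelial genes in all 6 libraries: the median FPKM (the count scaled by library total and gene length, a level per length) of 18 such markers lay between 362 and 881, against 0.674 to 6.86 for the 10 members. The median FPKM of 19 LSEC markers, at 1.08 to 3.60, was likewise far below that of the macrophage markers. The study's methods describe the collected cells as almost all positive for CD146 by flow cytometry. None of the 18 macrophage markers was at 0, and their summed level ranged from 24939 to 37986 CPM. The part of the RNA that came from cells other than LSECs was not tested.

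The members were clearest as a group in 1 library. Replicate 2 of the resistant group had the lowest CPM of the 6 libraries for 10 of 10 members, whereas it was the lowest for 12.0% of all tested genes. Summed over the 10 genes, the level in replicates 1, 2 and 3 was 410, 240 and 487 CPM for the sensitive group and 420, 71.2 and 423 CPM for the resistant group. Only replicate 2 of each group stood below 410 CPM, and the resistant one was the lower of the pair. The ratio of its CPM to the median of the other 5 libraries had a median of 0.218 over the members, from 0.0626 for Cldn5 and 0.0834 for Cdh5 to 0.437 for Eng. In these bulk libraries, fewer endothelial cells and less of these RNAs per cell cannot be told apart. The resistant over sensitive ratio of the summed CPM was 0.803 with all libraries and 1.11 without replicate 2 of the resistant group. Without replicate 2 of both groups it was 0.939, so its direction depended on which of these libraries were kept.

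**Figure D1:**
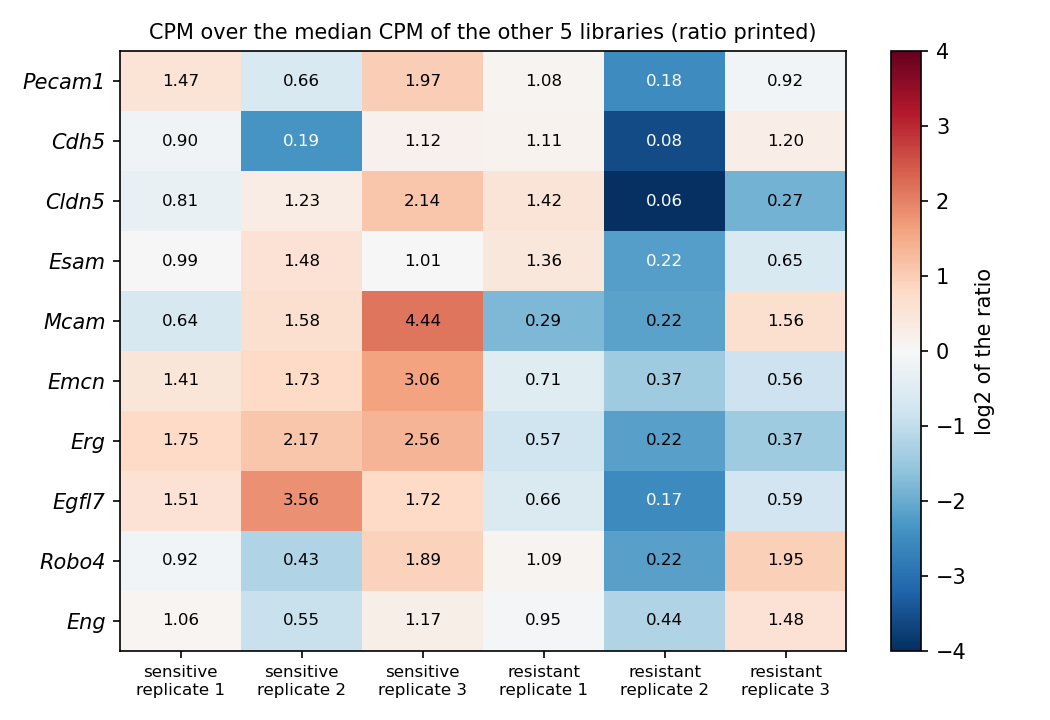
Heat map of each gene's CPM in a library divided by the median CPM of the other 5 libraries, with the ratio printed in each cell and its log2 as colour. The column of replicate 2 of the resistant group is below 1 for 10 of 10 genes, from 0.06 for Cldn5 to 0.44 for Eng, while Cdh5 in replicate 2 of the sensitive group is at 0.19.

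Between the groups, edgeR's quasi-likelihood test called 0 of 10 members at an adjusted p under 0.05, and it called 0% of the whole table as well. At an unadjusted p under 0.05, 3 of 10 members were lower in the resistant group (Erg, Egfl7 and Emcn) and 0 were higher, against 2.54% of all tested genes lower and 0.536% higher. The same 3 were the members whose libraries did not overlap between groups, all lower in the resistant group, where 3.38% of all tested genes were lower without overlap and 5.01% higher. DESeq2's Wald test called Erg alone (adjusted p = 0.0418), and it called 0.155% of the table. limma-voom called 0 members, with the same 3 under an unadjusted p of 0.05. The median log2 fold change of the members, resistant over sensitive, was -1.15, against 0.01 over all tested genes. It was -0.65 without replicate 2 of the resistant group. Of the 10, 9 had a negative estimate and 1, Eng, a positive one, and those of Cdh5, Robo4 and Eng were within 0.1 of 0 and turned sign when single libraries were left out.

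**Figure D2:**
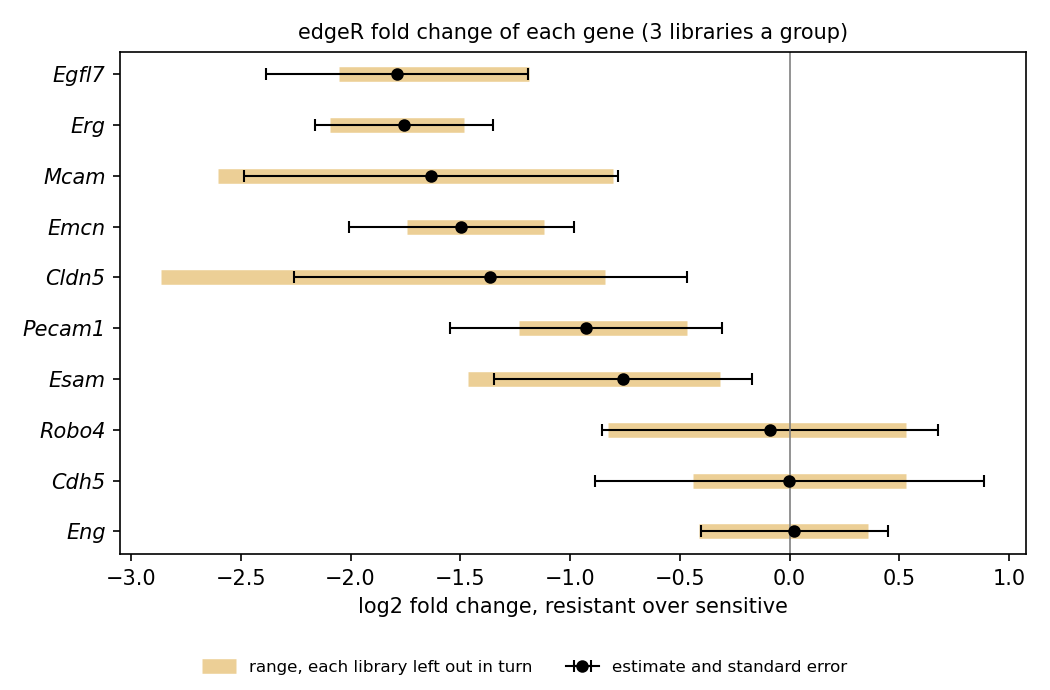
The log2 fold change of each gene (edgeR, resistant over sensitive, 3 libraries a group) as a point with its standard error, over a bar that spans the estimates with each library left out in turn. Erg, Egfl7, Emcn, Mcam, Cldn5, Pecam1 and Esam stay below 0 over the whole bar, and the bars of Cdh5, Robo4 and Eng cross 0.

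Erg, an ETS-family transcription factor that maintains endothelial identity, lies at chr16:95359169-95586593 on the minus strand (GRCm38, as are all coordinates here). It measured 9.78, 12.2 and 14.3 CPM in the sensitive libraries, in the order of their replicate numbers. The resistant libraries measured 5.60, 2.17 and 3.64 CPM. Every resistant library was below every sensitive one, including replicate 1 of the resistant group, in which most other members were not low. The means were 12.1 ± 2.26 CPM (SD, n = 3) and 3.80 ± 1.72 CPM (SD, n = 3), and the log2 fold change was -1.76 (SE 0.41). The edgeR test gave an unadjusted p of 0.00333 and an adjusted p of 0.940. An exact permutation test over the libraries gave a 2-sided p of 0.1, the smallest that 3 libraries against 3 allow. With each library left out in turn the log2 fold change lay between -2.09 and -1.48, the unadjusted edgeR p between 0.00296 and 0.0146. The value of -1.48 was the one without replicate 2 of the resistant group.

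The ETS relatives of Erg did not share its pattern of values. Of 11 listed ETS factors, Erg among them, 10 passed the filter. Of these, 7 had a positive estimate and 3, including Erg, a negative one, and the median log2 fold change was 0.12. Erg was the only one under an unadjusted p of 0.05 by edgeR. Fli1, its closest relative and itself active in blood cells, was at 69.2, 32.2 and 66.7 CPM in the sensitive libraries and at 58.9, 65.0 and 58.7 CPM in the resistant ones, where replicate 2 of the resistant group was not low. Elf1, Elf4 and Gabpa, which are broadly expressed, had the largest estimates beside Erg, from 0.25 to 0.27 on the log2 scale.

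Egfl7, a secreted protein of the vessel wall whose intron hosts miR-126, lies at chr2:26580014-26593120 on the plus strand. Its sensitive libraries measured 15.0, 35.3 and 17.1 CPM. The resistant ones measured 9.94, 2.58 and 8.89 CPM. The groups did not overlap, and replicate 2 was the highest library of the sensitive group and the lowest of the resistant group. Means were 22.5 ± 11.2 CPM (SD, n = 3) and 7.14 ± 3.98 CPM (SD, n = 3), with a log2 fold change of -1.79 (SE 0.60), an unadjusted edgeR p of 0.0199 and an adjusted p of 0.940. Without replicate 2 of the sensitive group the estimate was -1.19 and the unadjusted edgeR p 0.0674. In the annotation, exons of Egfl7 overlap those of Agpat2 and Mir126b on the other strand and of Gm20532 and Mir126a on its own strand. Agpat2 held 327 to 511 counts a library and the other 3 were listed at 0, and it is not stated whether counting used strand.

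Emcn encodes endomucin, a sialoglycoprotein of venous and capillary endothelium, at chr3:137341067-137432185 on the plus strand. It was scarce, with 40, 44 and 91 counts (2.04, 2.50 and 4.43 CPM) in the sensitive group. The resistant group had 30, 15 and 22 counts (1.45, 0.759 and 1.14 CPM). The groups did not overlap, though replicate 1 of each stood close. Means were 2.99 ± 1.27 CPM (SD, n = 3) and 1.12 ± 0.345 CPM (SD, n = 3), the log2 fold change was -1.49 (SE 0.51), and edgeR gave an unadjusted p of 0.0216 and an adjusted p of 0.940. The unadjusted p rose above 0.05 without replicate 3 of the sensitive group (0.0928), replicate 2 of the resistant group (0.0797) or replicate 3 of the resistant group (0.0634). Exact permutation tests of Egfl7 and Emcn both gave 0.1, the lowest attainable.

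ETS proteins recognise DNA around a GGAA core, so the promoter windows of the 3 genes without overlap, and of Cldn5 as the member with the widest spread over libraries, are shown from RefSeq (build GRCm38.p6). Each window runs from 250 bases before a start to 50 after it, written along the gene's strand, with every GGAA, or TTCC where the core is on the other strand, in capitals. Windows of 7 of the 10 members were matched, 11 in all, and for Erg and Egfl7 the window of the start farthest upstream of 3 listed is given.
Erg, chr16:95586544-95586843, minus strand: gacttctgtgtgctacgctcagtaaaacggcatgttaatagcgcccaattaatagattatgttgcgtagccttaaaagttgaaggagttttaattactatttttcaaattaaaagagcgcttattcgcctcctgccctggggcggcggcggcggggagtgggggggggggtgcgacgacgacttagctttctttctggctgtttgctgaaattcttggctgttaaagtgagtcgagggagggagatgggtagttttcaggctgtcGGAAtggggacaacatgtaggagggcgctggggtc
Egfl7, chr2:26580833-26581132, plus strand: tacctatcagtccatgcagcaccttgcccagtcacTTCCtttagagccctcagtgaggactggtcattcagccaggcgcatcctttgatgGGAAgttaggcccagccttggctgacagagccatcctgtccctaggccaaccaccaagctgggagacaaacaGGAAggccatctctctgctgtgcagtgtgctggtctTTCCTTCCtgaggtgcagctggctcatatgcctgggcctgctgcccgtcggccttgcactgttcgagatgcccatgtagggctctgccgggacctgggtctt
Emcn, chr3:137340828-137341127, plus strand: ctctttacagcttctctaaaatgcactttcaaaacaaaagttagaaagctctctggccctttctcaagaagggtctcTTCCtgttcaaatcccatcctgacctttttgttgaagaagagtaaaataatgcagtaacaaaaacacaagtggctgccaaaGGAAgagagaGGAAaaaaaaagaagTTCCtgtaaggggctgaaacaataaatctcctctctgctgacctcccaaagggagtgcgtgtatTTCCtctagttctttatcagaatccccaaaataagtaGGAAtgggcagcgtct
Cldn5, chr16:18776597-18776896, plus strand: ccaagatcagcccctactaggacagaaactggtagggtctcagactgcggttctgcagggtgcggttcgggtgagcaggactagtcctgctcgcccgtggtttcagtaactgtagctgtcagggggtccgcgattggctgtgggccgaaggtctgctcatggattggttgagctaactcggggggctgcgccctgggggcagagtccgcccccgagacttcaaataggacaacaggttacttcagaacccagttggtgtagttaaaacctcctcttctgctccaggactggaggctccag
The Erg window held 1 GGAA core, the Egfl7 window 5 and the Emcn window 6, and the Cldn5 window held 0. The count depends on the start chosen: the other Erg windows held 2 and 4 cores and the other Egfl7 windows 4 and 1. On both strands the core occurs in 96.0% of 32851 promoter windows of this length, with a median of 3, so its presence does not set these genes apart. The longer ETS words CGGAAGT and CCGGAAGT, which contain it, were in 0 of the 11 member windows and in 6.42% and 3.89% of all windows.

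Pecam1, the homophilic adhesion molecule CD31, lies at chr11:106654217-106750628 on the minus strand. It measured 68.3, 33.2 and 91.9 CPM in the sensitive libraries and 50.5, 8.85 and 46.6 CPM in the resistant ones. Replicates 1 and 3 of the resistant group lay above replicate 2 and below replicates 1 and 3 of the sensitive group, so the groups overlapped. Means were 64.5 ± 29.5 CPM and 35.3 ± 23.0 CPM (SD, n = 3 each), and the log2 fold change was -0.93 (SE 0.62, edgeR adjusted p = 0.940, exact permutation p = 0.3). Without replicate 2 of the resistant group it was -0.47.

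Cdh5 encodes VE-cadherin, which joins endothelial cells at adherens junctions, at chr8:104101625-104144511 on the plus strand. Its levels were 195, 42.0 and 219 CPM in the sensitive group and 216, 18.0 and 234 CPM in the resistant group. Replicates 1 and 3 of both groups stood together between 195 and 234 CPM, while replicate 2 of each was several-fold lower. The means, 152 ± 95.9 CPM and 156 ± 120 CPM (SD, n = 3 each), differed by far less than the spread, with a log2 fold change of -0.001 (SE 0.888, edgeR adjusted p = 1.00, exact permutation p = 1). Leaving out replicate 2 of the resistant group moved it to 0.53, and the other 5 left-out libraries gave values from -0.44 to 0.38.

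Cldn5, the main claudin of endothelial tight junctions, lies at chr16:18776847-18778262 on the plus strand in a single transcript model. The sensitive libraries held 116, 128 and 260 counts (5.91, 7.27 and 12.6 CPM). The resistant ones held 174, 9 and 38 counts (8.39, 0.455 and 1.98 CPM). Replicate 1 of the resistant group lay within the sensitive range and the other resistant libraries below it, and the highest library was 27.8 times the lowest, the widest range of the 10 genes. The log2 fold change was -1.36 (SE 0.90, edgeR adjusted p = 0.940, exact permutation p = 0.3), and it was -2.86 without replicate 1 and -0.84 without replicate 2 of the resistant group.

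Esam, an immunoglobulin-family adhesion molecule of endothelial tight junctions that platelets also carry, lies at chr9:37528078-37538319 on the plus strand. It measured 48.1, 71.0 and 48.5 CPM in the sensitive group and 65.5, 10.5 and 31.7 CPM in the resistant group. Replicate 1 of the resistant group fell inside the sensitive range, the other resistant libraries under it. The means were 55.9 ± 13.1 CPM and 35.9 ± 27.7 CPM (SD, n = 3 each), with a log2 fold change of -0.76 (SE 0.59, edgeR adjusted p = 0.940, exact permutation p = 0.4). Leaving out replicate 1 of the resistant group gave -1.47. Leaving out replicate 2 gave -0.32 for the resistant group, -0.45 for the sensitive group and -0.03 for both at once.

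Partners of these junction genes were read beside them. Of 13 adherens and tight junction partners, such as catenins and zonula occludens proteins, 7 had positive and 6 negative estimates, the median log2 fold change was 0.14, and 3 were lowest in replicate 2 of the resistant group. Over all tested genes, 12.0% were lowest in that library, and 2.54% were lower under an unadjusted edgeR p of 0.05. Jam2, a junctional adhesion molecule of endothelium, was the 1 partner under an unadjusted edgeR p of 0.05. Its levels were 7.64, 7.73 and 4.04 CPM in the sensitive group and 2.41, 1.06 and 1.35 CPM in the resistant group. These did not overlap, and the log2 fold change was -2.09 (SE 0.48, unadjusted p = 0.00323, adjusted p = 0.940 by edgeR, adjusted p = 0.0409 by DESeq2).

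**Figure D3:**
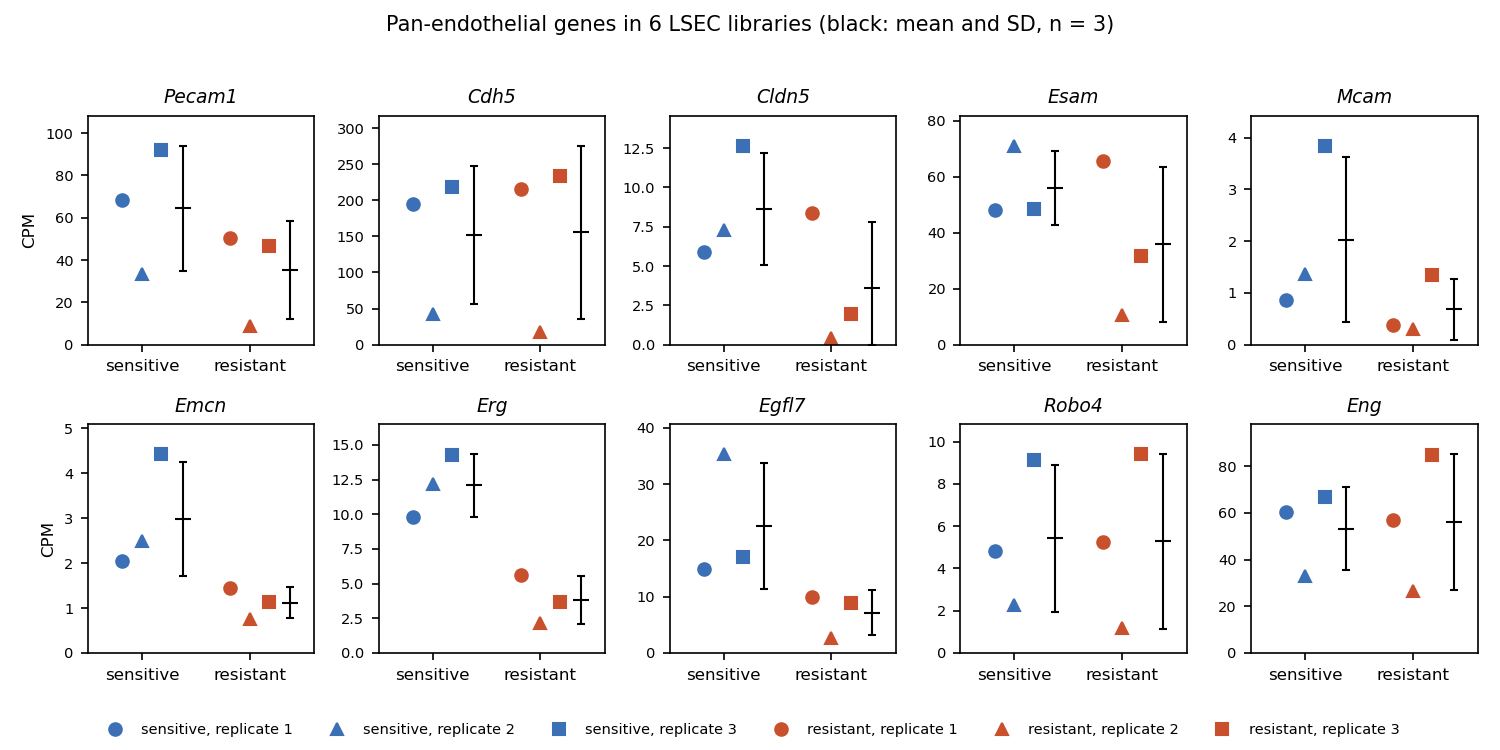
CPM of each gene in the 6 libraries, with the group mean and SD (n = 3, bars cut at 0) in black beside the points, each panel with its own linear axis. The groups do not overlap for Emcn, Erg and Egfl7, and the triangles of the resistant group, replicate 2, are the lowest points in 10 of 10 panels.

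Mcam encodes CD146, the protein on which the cells were collected, at chr9:44134469-44142727 on the plus strand. It was nevertheless among the scarcest members, with 17, 24 and 79 counts (0.866, 1.36 and 3.84 CPM) in the sensitive group. In the resistant group it had 8, 6 and 26 counts (0.386, 0.303 and 1.35 CPM). Replicate 3 was the highest library of each group, and the groups overlapped. The log2 fold change was -1.63 (SE 0.85, edgeR adjusted p = 0.940), which ranged from -2.60 to -0.80 as single libraries were left out. An exact permutation test gave a 2-sided p of 0.2. Its exons overlap those of the antisense model Gm10687, which held 1 to 15 counts a library.

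Robo4, a receptor of the Roundabout family that limits vessel leak and sprouting, lies at chr9:37401897-37415115 on the plus strand. It measured 4.84, 2.27 and 9.15 CPM in the sensitive libraries and 5.26, 1.16 and 9.41 CPM in the resistant ones. The order of the replicates was the same in both groups, with replicate 3 highest and replicate 2 lowest. The means, 5.42 ± 3.47 CPM and 5.28 ± 4.13 CPM (SD, n = 3 each), did not differ beyond this spread (log2 fold change -0.09, SE 0.76, edgeR adjusted p = 0.986, exact permutation p = 1). Of 9 other Slit and Robo guidance genes 6 passed the filter, 3 with positive and 3 with negative estimates, with a median of -0.03 and none under an unadjusted edgeR p of 0.05.

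Eng encodes endoglin, a coreceptor for BMP9 and BMP10 of the TGF-β family, at chr2:32646595-32682669 on the plus strand. Its levels were 60.3, 32.9 and 66.6 CPM in the sensitive group and 57.1, 26.4 and 84.6 CPM in the resistant group. Replicate 2 was lowest in each group, and the gap to the other libraries was the narrowest of the 10 genes, with the highest library 3.21 times the lowest. The means were 53.3 ± 17.9 CPM and 56.1 ± 29.1 CPM (SD, n = 3 each), and the log2 fold change was 0.02 (SE 0.42, edgeR adjusted p = 0.993, exact permutation p = 1). Exons of Eng overlap those of Fpgs on the other strand, which held 238 to 411 counts a library. Of 13 genes of its receptor complex and targets, 12 passed the filter, 11 with positive estimates and 1 with a negative one, at a median of 0.27 and with 0 under an unadjusted edgeR p of 0.05. The 13 genes summed to 1204, 596 and 1208 CPM in the sensitive libraries and to 1456, 1163 and 1068 CPM in the resistant ones. The sum was thus lowest in replicate 2 of the sensitive group, the library that stood apart, and the other libraries of the groups overlapped. Smad6 (0.75, SE 0.45) and Smad7 (0.54, SE 0.33), inhibitors induced by the pathway, had the largest log2 fold changes among those with an average log2 CPM of at least 0. None of the 12 was lowest in replicate 2 of the resistant group, unlike Eng.

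Levels between genes were compared per length. By mean FPKM over the 6 libraries the order was Cdh5 (36.6), Esam (16.0), Eng (13.5), Pecam1 (8.01), Cldn5 (4.31), Egfl7 (4.14), Erg (2.29), Robo4 (1.01), Mcam (0.404) and Emcn (0.379). Each of these 6-library ranges overlaps that of the next gene, but the genes were read in the same libraries. Within each of the 6 libraries, Eng stood above Pecam1, Pecam1 above Cldn5, Egfl7 above Erg and Robo4 above Mcam. The other neighbours changed order between libraries. Cdh5 came first in 4 of 6 libraries, Esam in replicate 2 of the sensitive group and Eng in replicate 2 of the resistant group. Percentiles among genes above 0 also depend on how many such genes there are, from 21792 to 25970 a library. Mcam lay between 14.6 and 50.6, and the 14.6 was in replicate 2 of the sensitive group. Its FPKM there was 0.407, above its lowest of 0.0906. Cdh5 reached the percentile 96.4 in its highest library and 67.5 in its lowest. The makeup of the summed CPM moved accordingly: Cdh5 took 44.9% to 55.2% of it in replicates 1 and 3 of both groups, 17.5% in replicate 2 of the sensitive group and 25.3% in replicate 2 of the resistant group, where Eng took 37.1%.

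**Figure D4:**
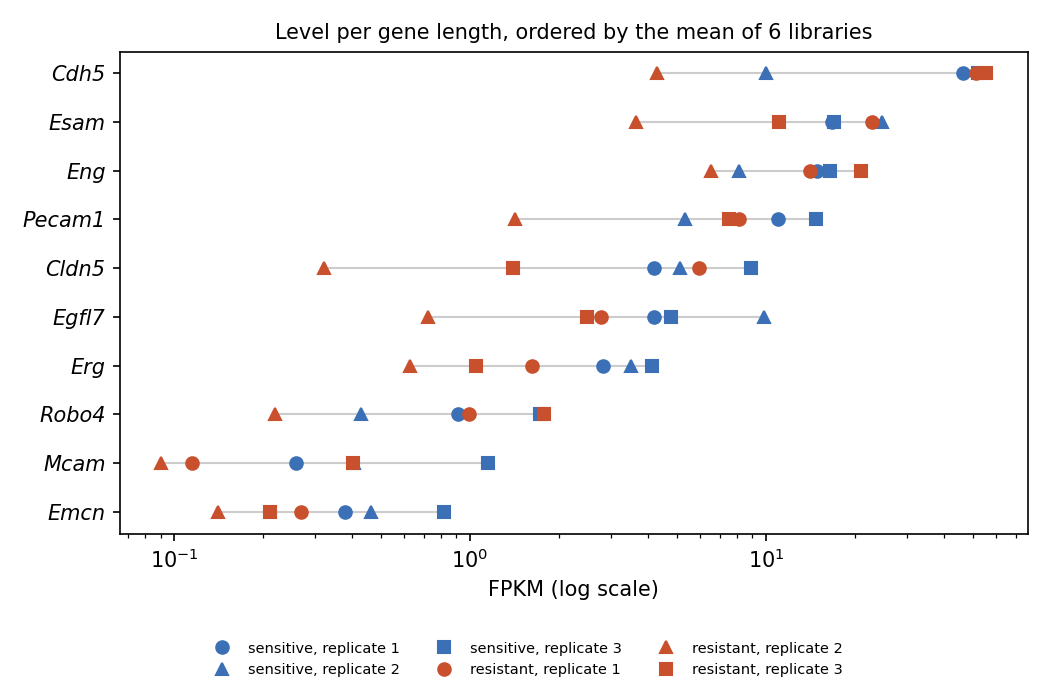
FPKM of each gene in the 6 libraries on a log axis, with genes ordered by their mean and a grey line from the lowest to the highest library. Cdh5 is at the top with a mean of 36.6 and Emcn at the bottom with 0.379, and the lowest point of 10 of 10 genes is replicate 2 of the resistant group.

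The members moved together across libraries in part. Over the 6 libraries, Pearson's r of log2 CPM between pairs of members had a median of 0.688 over 45 pairs and ranged from 0.262 (Eng with Erg) to 0.981 (Eng with Robo4). Emcn with Erg (0.961), Eng with Cdh5 (0.947) and Robo4 with Cdh5 (0.945) followed. Without replicate 2 of the resistant group the median was 0.386, with a range from -0.947 to 0.953. These values share libraries and depth and are given as a description. In replicate 2 of both groups, Cdh5, Eng, Robo4 and Pecam1 were below the median of the other libraries. Erg, Emcn and Egfl7 were above it in replicate 2 of the sensitive group, which their lack of overlap between groups already fixes. Mcam, Esam and Cldn5 were above it there as well, at 1.58, 1.48 and 1.23 times that median.

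Outside the 10 genes, likeness was the Pearson r of a gene's log2 CPM with the mean standardised profile of the members over the 6 libraries, among 13980 genes. The highest were Ablim1 (0.997), Pltp (0.991) and Adam23 (0.990), an unannotated locus (0.987) and Tbc1d30 (0.984), none of which was in a gene list used here. Adam23, the nearest to the members in its spread, measured 13.3, 9.89 and 20.3 CPM in the sensitive libraries and 12.5, 2.83 and 9.62 CPM in the resistant ones. Pltp, a phospholipid transfer protein, ranged far less, from 140 CPM in replicate 2 of the resistant group to 281 CPM in replicate 3 of the sensitive group.

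Other vascular endothelial genes showed where the low library was shared. Of 24 listed, 23 passed the filter, 19 with negative and 4 with positive estimates, the median log2 fold change was -0.83, and 17 of 23 were lowest in replicate 2 of the resistant group. Under an unadjusted edgeR p of 0.05, 3 were lower (Tek, Kdr and Vwf) and 0 higher, and 5 did not overlap between groups, all lower in the resistant group (those 3 with Sox17 and Tal1). Over all tested genes, 2.54% were lower and 0.536% higher under that p, and 3.38% were lower without overlap. Replicate 2 of the resistant group was the lowest library for 12.0% of all tested genes. Tek, the angiopoietin receptor, measured 16.1, 13.4 and 13.2 CPM in the sensitive group and 6.51, 1.01 and 4.32 CPM in the resistant group (log2 fold change -1.93, SE 0.59, edgeR adjusted p = 0.940). Tie1, its partner receptor, measured 5.75, 12.7 and 10.6 CPM against 7.24, 0.759 and 5.83 CPM, with overlap. Kdr, the main VEGF receptor of endothelium, measured 13.1, 6.70 and 8.81 CPM against 6.56, 3.64 and 5.20 CPM (-0.94, SE 0.34, edgeR adjusted p = 0.940). The 6 tested genes of the list that were not lowest in replicate 2 of the resistant group were Cd93, S1pr1, Fli1, Gpihbp1, Vwf and Cd34. In that library Cd93, S1pr1, Fli1 and Gpihbp1 were at 457, 41.8, 65.0 and 1.21 CPM, above their values of 190, 15.2, 32.2 and 0.966 CPM in replicate 2 of the sensitive group. Vwf was at 9.05 CPM, next to its lowest value of 8.35 CPM in replicate 1 of the resistant group, and Cd34 at 6.17 CPM, with its lowest value of 2.87 CPM in replicate 3 of the sensitive group. These 6 were picked out after their values were seen.

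Markers of LSECs themselves were also read. Of 19 listed, 18 passed the filter, 6 with positive and 12 with negative estimates, at a median log2 fold change of -0.28 and with 0 under an unadjusted edgeR p of 0.05. Replicate 2 of the resistant group was the lowest library for 7 of the 18, against 12.0% of all tested genes. Stab2, a scavenger receptor of the sinusoid, had 111, 83.0 and 128 CPM in the sensitive group and 142, 29.1 and 41.5 CPM in the resistant group. Lyve1, a hyaluronan receptor shared with some macrophages, had 65.3, 7.67 and 187 CPM against 253, 8.45 and 129 CPM, low in replicate 2 of both groups as Cdh5 was. Clec4g, a sinusoidal lectin, held 16 counts in its lowest library and 118 in its highest.

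For some lists of other cell type markers the summed level was highest in the low library, while for others it was not. In replicate 2 of the resistant group the summed level of 10 platelet and megakaryocyte markers was 435 CPM, against 96.5 to 138 CPM in the other 5. Of this, 420 CPM was Pf4, platelet factor 4, and the list as a whole was not high there: its median FPKM was 0.318 in that library, the lowest of the 6, against 0.405 to 1.31 in the others. Gp1bb was at 0 in all 6 libraries. Between the groups, 7 of the 10 were tested, 3 with positive and 4 with negative estimates. Gp9, a subunit of the platelet receptor for von Willebrand factor, was lower in the resistant group without overlap and under an unadjusted edgeR p of 0.05 (log2 fold change -2.20), while Gp5 (-1.66) and Itga2b (-1.14) were not under it. The sum of 14 stellate cell and pericyte markers was 371 CPM there, against 102 to 170 CPM elsewhere, with Col1a1 at 133 CPM. The sum of 8 hepatocyte markers was 151 CPM, against 28.8 to 93.8 CPM. Macrophage and Kupffer cell markers summed to 27545 CPM there, within their range over the libraries. The part of these cell types in the low values of the members was not tested.

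**Figure D5:**
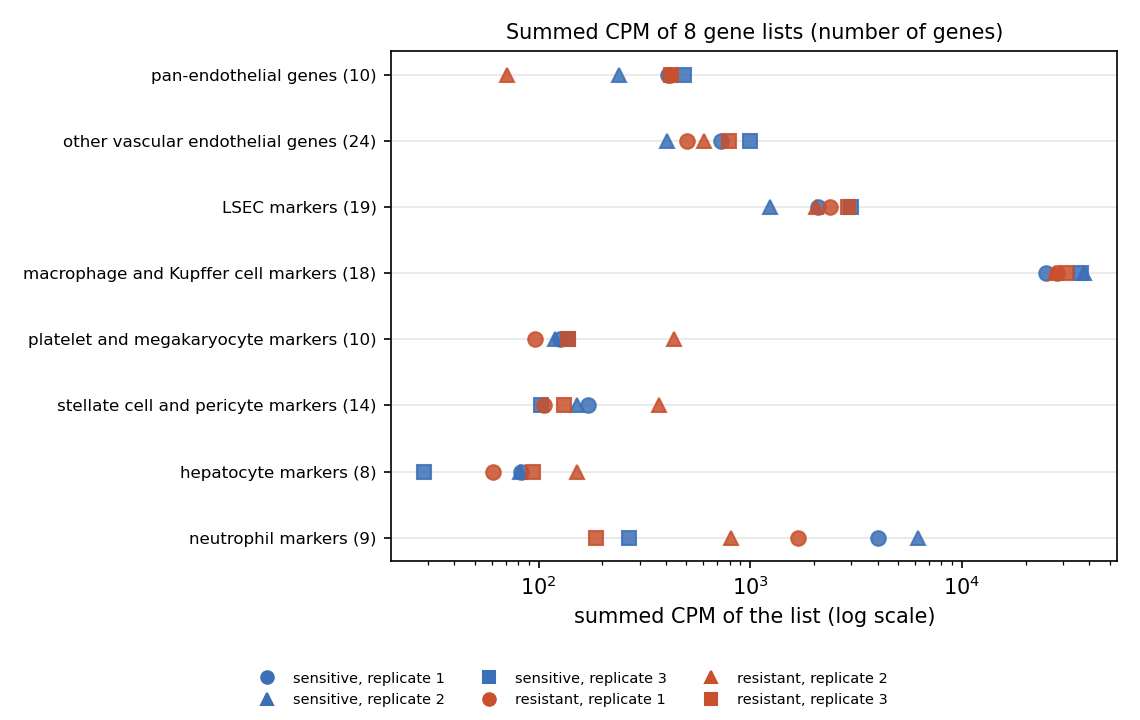
Summed CPM of 8 gene lists in each library on a log axis, with the number of genes of each list in the table. The 10 pan-endothelial genes are lowest in replicate 2 of the resistant group at 71.2 CPM, the library in which the stellate cell and hepatocyte sums are highest, as is the platelet sum, of which Pf4 is 420 of 435 CPM.

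Between the groups, other lists moved too. All 9 neutrophil markers had negative estimates, at a median of -2.19, with 2 under an unadjusted edgeR p of 0.05 (Csf3r and Retnlg), and their sums were 4026, 6191 and 267 CPM in the sensitive group and 1674, 810 and 187 CPM in the resistant group. Replicate 3 of each group was the lowest in that list, where the members summed to 487 and 423 CPM. All 7 hepatocyte markers tested had positive estimates, at a median of 1.10, with Hnf4a under an unadjusted edgeR p of 0.05. Macrophage markers had a median of -0.33, with Cd14 higher and Aif1 and Timd4 lower under that threshold. Of all tested genes, 2.54% were lower and 0.536% higher under it. Without both libraries numbered 2, a choice made after seeing the data, the summed CPM of the members had a resistant over sensitive ratio of 0.939, and Egfl7, Erg and Pecam1 were under an unadjusted edgeR p of 0.05, so that Erg and Egfl7 remained from the 3.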

How the data were processed

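RNA-seq was measured in 6 libraries of mouse LSECs, grouped by the sample titles. Per the submitters' notes, reads were aligned with HISAT2 2.0.5 and counted per gene with featureCounts 1.5.0-p3. The authors deposited whole-number counts, not normalized. FPKM values, deposited beside them, divide the count by the library total and 1 length per gene. A table of the authors' own DESeq2 comparison, with group means, log2 fold changes and p-values, was not used. Both poly(A) purification and depletion of ribosomal RNA are named in the study's methods. The notes name build mm9, but the length implied by count and FPKM was within 5% of the GENCODE M21 (GRCm38) exon length for 99.0% of 15096 genes, so M21 coordinates were matched by Ensembl identifier.

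From the counts, CPM used library totals. The main test was edgeR 4.0.16 (R 4.3.3): filterByExpr, TMM, robust quasi-likelihood, Benjamini-Hochberg adjustment over the 15474 genes tested, threshold 0.05. Its biological coefficient of variation was 42.2%. The fit was tested on simulated data that gave all genes the same spread and held no outlying library, unlike the data here. DESeq2 1.42.0, limma-voom (limma 3.58.1), other size factors and filters, a replicate block and the omission of single libraries were alternatives. The log2 CPM used for correlations had a prior count of 2. The members and the gene lists were chosen with earlier results of these data known. All members were named, and of other lists up to 3 genes with the largest fold change, genes that define a cell type, and the 5 genes most like the members, each with an average log2 CPM of at least 0. Genes named outside this rule were those under an unadjusted p of 0.05 or without overlap in a list, and a few others chosen after their values were seen. No promoter window was matched for Pecam1, Cdh5 and Esam.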

Additional observations from a re-analysis of the deposited data

How the results depend on the processing

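Over 14 other settings, 124 of 138 values of the 10 members kept their direction and their side of the threshold, 13 turned sign and 1 passed the threshold. DESeq2 called 1 member (Erg) and 24 genes of the table, where edgeR called 0 of each. In the other lists, with those of cell type markers not counted, DESeq2 called 1 gene (Jam2) and edgeR 0. Members under an unadjusted p of 0.05 numbered 3 with edgeR and 2 to 5 with single libraries left out (5 without replicate 1 of the resistant group, with Cldn5 and Esam). Over the table the number was 476 with edgeR, 1189 with no filter beyond 1 count in all, 732 with DESeq2 and 167 to 1056 with single libraries left out. The ratio of the summed CPM ranged from 0.648 to 1.11 with single libraries left out and was 0.655 without Cdh5. The log2 fold change of Cdh5 turned to 0.0359 with library totals alone, 0.0230 with no filter and 0.0948 without both libraries numbered 2, and ranged from -0.44 to 0.53 with single libraries left out. That of Eng turned to -0.0918 with limma-voom and -0.0822 with the replicate block, and ranged from -0.41 to 0.36. That of Robo4 turned to 0.0423 without both libraries numbered 2, and ranged from -0.83 to 0.53. For the calls, the cause was not tested. A minimum of 10 counts in every library left no value for Mcam and Cldn5. The labels do not say whether equally numbered libraries share a day or batch. Their deviations from the group mean correlated at -0.00093, 0.034 and 0.194, which with 3 libraries a group cannot decide it. The replicate block called 0 members and 0 genes, with 467 genes and 3 members (Erg, Mcam and Pecam1) under an unadjusted p of 0.05. With 3 libraries a group, at this depth and spread between libraries, edgeR called no gene, however large its estimate. The lack of an edgeR call therefore does not show that the difference of a member was small. Mcam, Emcn, Cldn5, Robo4 and Erg were at fewer than 50 counts in at least 1 library.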
